A study of Mus musculus with 12 samples.

Results

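The 10 genes described here are named components or known outputs of the Wnt/beta-catenin program of hepatocytes around the central vein: Lgr5, Rnf43, Znrf3, Ctnnb1, Axin2, Tcf7l2, Glul, Tbx3, Rhbg and Lhpp. They were chosen by gene name, with earlier results of these data known, and make up 10 of the 17432 genes in the count table. All 10 passed the filter on low counts, which left 12344 genes for testing.

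The samples were whole livers of wild-type C57BL/6J mice, 6 labelled Sedentary and 6 labelled Exercise, with 1 RNA-seq library per mouse. Per the study's methods the mice were 8 to 10 weeks old males, and food intake in both groups was synchronized for 3 days, with a daily run at 10 m/min to accustom them to the treadmill. On the test day every mouse was refed for 3 hours and food was then taken away. Exercise mice ran a single bout at 14 m/min for 3 hours, Sedentary mice did not run, and the livers of both groups were collected together when the run ended. Both groups had therefore been without food for the length of the run.

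Liver lobules are zoned from the portal vein to the central vein. Endothelial cells of the central vein release Wnt ligands and R-spondin, which keep beta-catenin active in the adjoining hepatocytes, and beta-catenin with a TCF factor then switches on the pericentral genes, of which glutamine synthetase (Glul) is the best known. Rnf43 and Znrf3 are membrane ubiquitin ligases that remove Frizzled receptors from the cell surface, and R-spondin bound to LGR receptors such as Lgr5 takes these ligases out of action.

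Sequences are shown for Glul, Rnf43 and Axin2, since Glul and Rnf43 had the smallest p-values of the 10 genes, whereas Axin2, a standard reporter of Wnt signaling, did not pass the test. RefSeq promoter windows, which run from 250 bases before to 50 bases after a transcription start on GRCm38.p6, matched 5 of the 10 genes (Glul, Ctnnb1, Rnf43, Axin2 and Tcf7l2) with 8 windows in all. Printed is the part before the start, 5′ to 3′ on the plus strand, with each CCAAT box (CCAAT on either strand) in capitals, at chr1:153899679-153899928 for Glul, chr11:87662837-87663086 for Rnf43 and chr11:108920099-108920348 for Axin2.
Glul: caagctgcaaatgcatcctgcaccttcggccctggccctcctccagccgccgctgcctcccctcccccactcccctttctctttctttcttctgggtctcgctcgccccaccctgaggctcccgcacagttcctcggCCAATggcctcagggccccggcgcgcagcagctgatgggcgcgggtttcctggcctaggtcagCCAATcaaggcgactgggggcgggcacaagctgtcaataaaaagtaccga
Rnf43: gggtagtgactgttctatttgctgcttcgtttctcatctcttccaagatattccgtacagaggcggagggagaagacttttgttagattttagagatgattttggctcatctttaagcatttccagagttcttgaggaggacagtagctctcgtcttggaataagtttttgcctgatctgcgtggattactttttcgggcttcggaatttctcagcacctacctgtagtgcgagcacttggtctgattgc
Axin2: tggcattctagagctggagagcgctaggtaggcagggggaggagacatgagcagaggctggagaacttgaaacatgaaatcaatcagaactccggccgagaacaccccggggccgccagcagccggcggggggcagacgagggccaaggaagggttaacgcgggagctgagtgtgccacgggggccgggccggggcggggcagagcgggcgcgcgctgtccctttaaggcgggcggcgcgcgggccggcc

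The Glul stretch holds 2 CCAAT boxes, and those of Rnf43 and Axin2 hold 0. CCAAT was not among the motifs planned in advance. Rnf43 has a second RefSeq window that is not printed, whose part before the start (chr11:87699647-87699896) holds 0. The printed Rnf43 stretch lies within the GENCODE span of the gene, which begins at chr11:87662722. Over the whole windows CCAAT was found in 3 of 8 (those of Glul and Axin2 and 1 of Ctnnb1; in Axin2 outside the printed stretch), against 37.4% of the 32851 RefSeq promoter windows of the same length. The core letters of a TCF/LEF site, CTTTGAA or CTTTGAT on either strand, were in 0 of 8 windows, against 8.65% of all windows. The letters TATAAA, a motif added after the sequences had been seen, were in 2 of 8 windows, against 13.6% of all. GC content of the printed stretches was 64.8% for Glul, 44.4% for Rnf43 and 69.2% for Axin2.

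Postprandial exercise lowered 5 of the 10 genes and raised 1. The fall in Rnf43, to 9.42 ± 1.12 from 19.0 ± 1.36 CPM (SD, n = 6 each; read counts relative to library size, scaled with TMM factors), was the largest of the 10 on the log2 scale. Glul, Tbx3 and Lgr5 fell by 0.74, 0.79 and 0.68 on the log2 scale, Rhbg fell by 0.36, and Znrf3 rose by 0.51. Ctnnb1, Axin2, Tcf7l2 and Lhpp did not pass the test (edgeR's quasi-likelihood test, Benjamini-Hochberg adjusted p under 0.05 over all genes tested). Of all genes tested, 42.4% passed in either direction, 21.3% were lower and 21.1% higher after exercise, so that the 5 lower genes of 10 stand against 21.3% and the 1 higher gene against 21.1%. The median log2 fold change was -0.30 over the 10 genes and -0.0028 over all genes tested. In 3 of the 10, Rnf43, Glul and Tbx3, the CPM ranges of the groups did not overlap, as was so for 22.3% of all genes. In whole liver, fewer pericentral hepatocytes and less RNA per cell cannot be told apart.

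**Figure D1:**
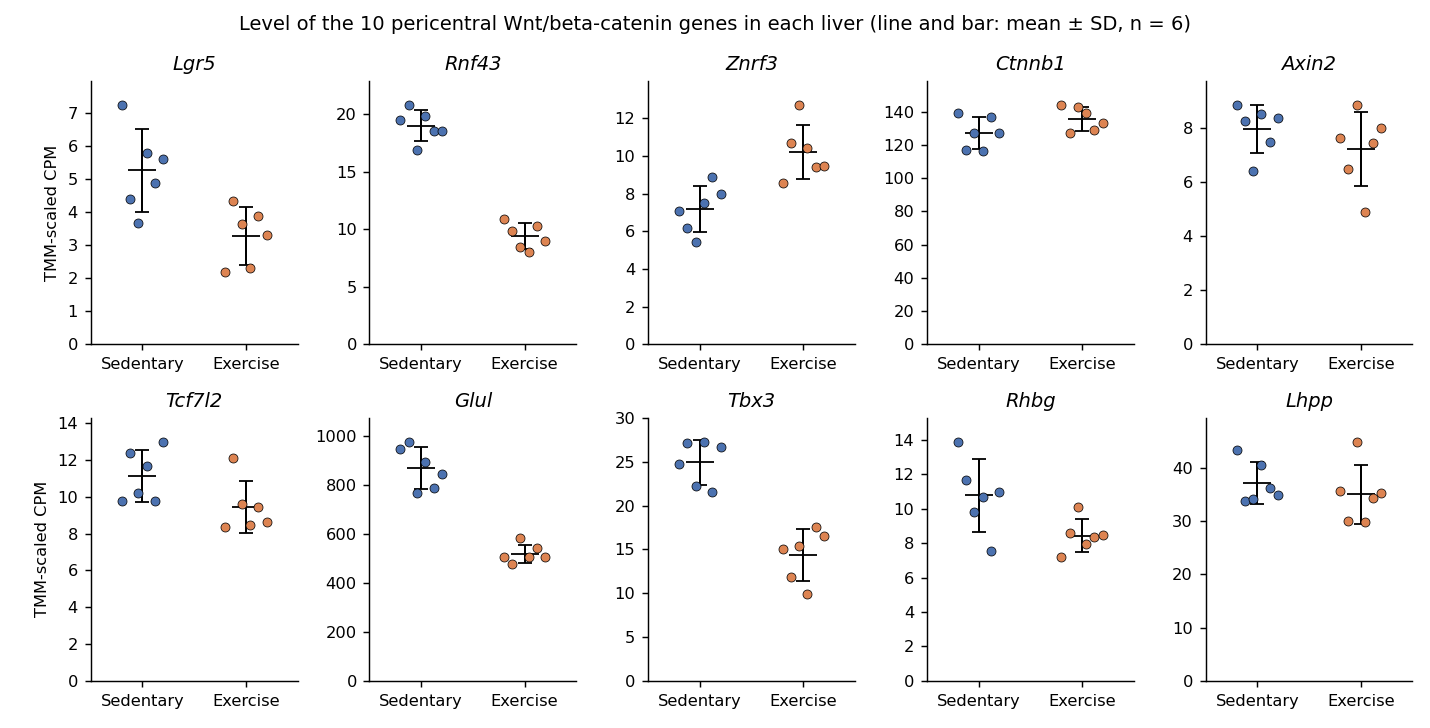
Level of each of the 10 genes in every liver, in TMM-scaled CPM (y axis, from 0 in each panel), for the 6 Sedentary and the 6 Exercise mice; points are livers, and the line with its bar is the mean ± SD. Rnf43, Glul and Tbx3 separate fully, Lgr5, Rhbg and Tcf7l2 overlap with lower means after exercise, and Znrf3 lies higher in 5 of 6 exercised livers than in any sedentary one.

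Among the genes at the cell surface, Rnf43 had the clearest change. Its level in the 6 sedentary livers ran from 16.9 to 20.8 CPM with a median of 19.0, and in the 6 exercised livers from 8.04 to 10.9 CPM with a median of 9.41. The highest exercised liver stayed well below the lowest sedentary one. The log2 fold change was -1.01 (SE 0.0803, 95% interval -1.18 to -0.84, adjusted p = 6.64e-08, edgeR), which placed Rnf43 44th by p among all genes tested and 12th among those lower after exercise. An exact two-sided permutation test on log2(CPM + 0.5) gave p = 0.00216, the smallest that 6 against 6 livers allow.

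Znrf3, its paralog with the same function, moved in the opposite direction. It measured 5.45 to 8.86 CPM (median 7.28) in sedentary livers and 8.54 to 12.7 CPM (median 9.90) in exercised ones. All exercised livers but the lowest exceeded the highest sedentary liver. The log2 fold change was 0.51 (SE 0.116, 95% interval 0.26 to 0.75, adjusted p = 0.00186, edgeR), and the exact permutation p was 0.00433. Znrf3 had 107 to 219 counts per liver, and 11 of its 12 deposited counts were not whole numbers. Its value therefore partly rests on how the authors' software shared reads between transcripts. Per transcript length, in FPKM (fragments per kilobase of transcript and depth of the library), the level of Znrf3 was 0.162 to 0.267 of that of Rnf43 in sedentary livers and 0.475 to 0.900 of it after exercise. Per length, Rnf43 thus remained the higher of the pair in all 12 livers, with a smaller margin after exercise. That order rests on the transcript lengths behind FPKM. In CPM, not scaled for length, the exercised means were 9.42 for Rnf43 and 10.2 for Znrf3. FPKM per count also shifted after exercise, by -0.062 for Rnf43 and 0.063 for Znrf3 on the log2 scale, which adds to the change in the ratio. This ratio was formed after the values were seen and is given without a test.

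**Figure D2:**
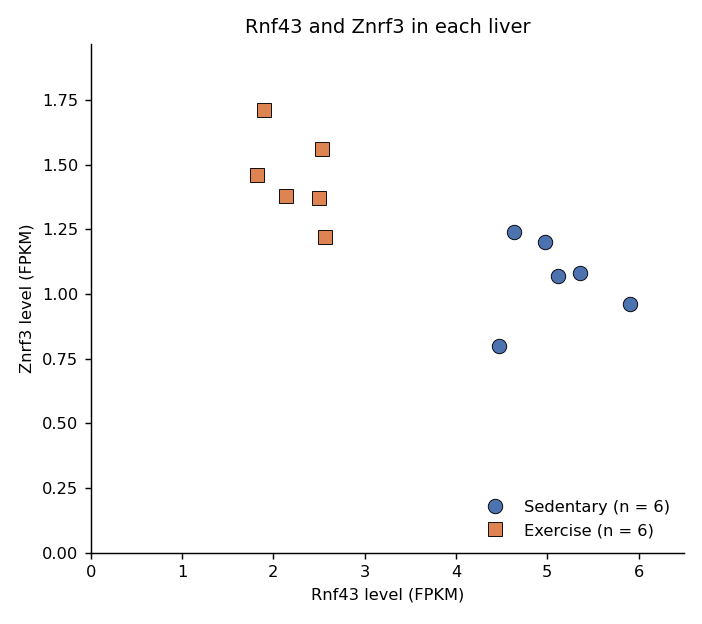
FPKM of Rnf43 (x axis) and Znrf3 (y axis) in each liver, circles for the 6 Sedentary and squares for the 6 Exercise mice, both axes from 0. The groups form separate clouds, with Rnf43 at 4.47 to 5.91 FPKM in sedentary and 1.82 to 2.57 FPKM in exercised livers.

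Lgr5, a receptor for R-spondin and itself a Wnt target, was also lower after exercise. Levels were 3.67 to 7.25 CPM (median 5.25) in sedentary livers and 2.19 to 4.34 CPM (median 3.48) in exercised livers. In 4 of 6 exercised livers the level was below that of every sedentary liver. The log2 fold change was -0.68 (SE 0.182, 95% interval -1.06 to -0.30, adjusted p = 0.00622, edgeR; exact permutation p = 0.00866). Lgr5 had the fewest reads of the 10 genes, 40 to 145 counts per liver. None of its 12 deposited counts was a whole number, so that its value, like that of Znrf3, partly rests on how reads were shared. Counting error alone amounts to 9.78% of its sedentary and 12.9% of its exercised mean.

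Of the genes that carry the signal inside the cell, 0 of 3 passed the test in edgeR, DESeq2 or limma-voom (42.4% of all genes passed in edgeR), with 1 of 3 (Tcf7l2) at an unadjusted p under 0.05 in edgeR. Ctnnb1 encodes beta-catenin, whose activity is mainly set by protein breakdown. It measured 116 to 139 CPM (median 127) in sedentary and 127 to 144 CPM (median 136) in exercised livers, ranges that overlap widely. The log2 difference was 0.09 (95% interval -0.03 to 0.22, adjusted p = 0.225, edgeR; exact permutation p = 0.126), and its sign turned when the libraries were scaled by size alone (-0.0026).

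Axin2 is a scaffold of the complex that breaks down beta-catenin and is induced by the pathway as a negative feedback. Its level was 6.42 to 8.85 CPM (median 8.33) in sedentary and 4.90 to 8.87 CPM (median 7.56) in exercised livers. The exercised range contained the sedentary one. The log2 difference was -0.15 (95% interval -0.40 to 0.11, adjusted p = 0.353, edgeR; exact permutation p = 0.292), an interval that does not reach the fall measured for Rnf43, Glul or Tbx3.

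Tcf7l2 encodes the main TCF factor of hepatocytes. Sedentary livers had 9.75 to 13.0 CPM (median 11) and exercised livers 8.37 to 12.1 CPM (median 9.02). Exercised livers lay below the lowest sedentary one in 5 of 6 mice, and Exercise 2, at 12.1 CPM, lay among the sedentary livers. The log2 difference was -0.24 (SE 0.103, 95% interval -0.46 to -0.02, adjusted p = 0.0691, edgeR; exact permutation p = 0.0584). It passed without Exercise 2 (-0.33, adjusted p = 0.0112, edgeR), without Sedentary 1 (-0.28, adjusted p = 0.0466) or without Sedentary 5 (-0.27, adjusted p = 0.0476), so that single livers decided the call.

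Of the pericentral outputs, Glul had the highest level and the smallest standard error of its fold change. Glutamine synthetase joins ammonia to glutamate in the last rows of hepatocytes before the central vein. Levels ran from 767 to 975 CPM (median 866) in sedentary livers and from 477 to 581 CPM (median 504) after exercise. No exercised liver came near the sedentary range. The exercised mean was 0.597 of the sedentary mean (519 ± 37.0 against 868 ± 84.5 CPM, SD, n = 6 each), with a log2 fold change of -0.74 (SE 0.0708, 95% interval -0.89 to -0.60, adjusted p = 4.08e-07, edgeR; exact permutation p = 0.00216).

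Tbx3, a T-box transcription factor and Wnt target of pericentral hepatocytes, fell to a similar extent. Sedentary livers had 21.5 to 27.3 CPM (median 25.7) and exercised livers 9.92 to 17.6 CPM (median 15.3). The groups were fully separate, although the exercised livers were spread more widely around their mean. Its log2 fold change was -0.79 (SE 0.118, 95% interval -1.04 to -0.54, adjusted p = 7.19e-05, edgeR; exact permutation p = 0.00216).

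Rhbg, an ammonium transporter found in the same cells as glutamine synthetase, showed a smaller fall that depended on single livers. It measured 7.56 to 13.9 CPM (median 10.9) in sedentary and 7.22 to 10.1 CPM (median 8.41) in exercised livers. The groups overlapped, with 1 of 6 exercised livers below the lowest sedentary one. The log2 fold change was -0.36 (SE 0.118, 95% interval -0.60 to -0.11, adjusted p = 0.0212, edgeR; exact permutation p = 0.0368). It was -0.27 (adjusted p = 0.0591) without Sedentary 1 and -0.31 (adjusted p = 0.0522) without Exercise 1.

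Lhpp, a phosphatase that acts on phosphohistidine, is pericentral in mouse liver and did not pass the test. Levels were 33.7 to 43.3 CPM (median 35.5) in sedentary and 29.8 to 44.9 CPM (median 34.8) in exercised livers. The log2 difference was -0.09 (95% interval -0.28 to 0.11, adjusted p = 0.492, edgeR; exact permutation p = 0.394). Lhpp (chr7:132610638-132706420, GRCm38, plus strand) overlaps Fgfr2 on the other strand, whose mean was 21.6 CPM in sedentary and 11.7 CPM in exercised livers (-0.88 on the log2 scale, edgeR adjusted p = 5.46e-05). Whether counting used strand is not given in the sources used here. Of the 12 deposited counts of Lhpp, 0 were not whole, and a part of Fgfr2 reads in them was not tested. For Glul (chr1:153899944-153909723), the overlapping Teddm2 was at 0.0754 CPM in sedentary and 0.0824 CPM in exercised livers. Ulk4, which overlaps Ctnnb1 (chr9:120929216-120960507), was at 0.0502 and 0.0544 CPM. Both neighbors were thus near 0.

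**Figure D3:**
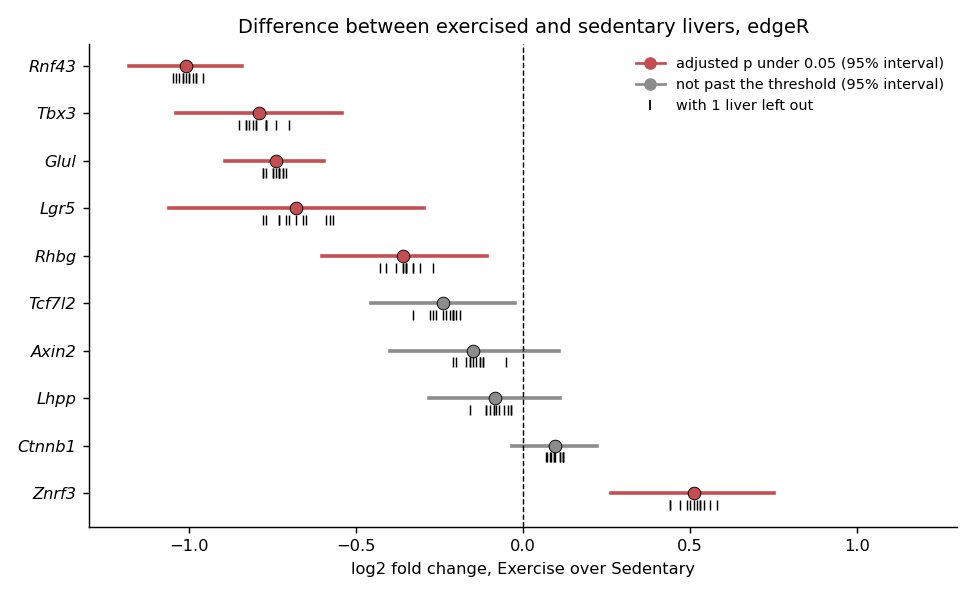
Log2 fold change of Exercise over Sedentary (x axis) for the 10 genes, in order of size, from edgeR with its 95% interval; red marks an adjusted p under 0.05 and ticks below each point give the value with 1 liver left out. Rnf43, Tbx3, Glul and Lgr5 lie below -0.5 with every liver left out in turn, and Ctnnb1, Axin2 and Lhpp have intervals that span 0.

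Compared per length, the 10 genes covered a wide range of levels. Median FPKM in sedentary livers was highest for Glul (326), followed by Ctnnb1 (38.3), Lhpp (25.8), Rhbg (6.86), Tbx3 (5.79), Rnf43 (5.04), Tcf7l2 (2.86), Axin2 (2.19), Lgr5 (1.14) and Znrf3 (1.08). Within this order the sedentary ranges of Rhbg and Tbx3, of Tbx3 and Rnf43, of Axin2 and Lgr5, and of Lgr5 and Znrf3 overlapped, and those of the other neighbors did not. After exercise the medians were 176 for Glul, 3.04 for Tbx3, 2.32 for Rnf43, 0.70 for Lgr5 and 1.42 for Znrf3, and the order was the same except that Znrf3 stood above Lgr5. For Lgr5 and Znrf3, at levels near 1 FPKM, the added constant shrinks the fold change on the log2(FPKM + 1) scale. There they were -0.37 and 0.25, against -0.71 and 0.43 on log2(FPKM + 0.1). Both genes were past the threshold on either scale.

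The other pericentral genes, on a list likewise written with earlier results of these data known, moved in both directions. Of 31 genes, all tested, 9 were lower and 4 higher, where 21.3% of all genes were lower and 21.1% higher. In all 41.9% passed, close to the 42.4% of all genes. The median log2 fold change was -0.13, against -0.0028 over all genes tested. A shift of the list as a whole was not tested. Lower were Tnfrsf19, a TNF receptor family member and Wnt target (4.15 ± 0.390 to 1.47 ± 0.246 CPM, -1.49 on the log2 scale, edgeR adjusted p = 2.22e-07), the amino acid transporter Slc1a4 (-1.11, adjusted p = 2.46e-06) and the nuclear receptor Nr1i3, also called CAR (-0.55, adjusted p = 0.000123). Higher were Por, the electron donor of microsomal P450 enzymes (330.3 ± 87.2 to 784 ± 88.1 CPM, 1.25, adjusted p = 3.34e-05), the glutamate transporter Slc1a2 (0.53, adjusted p = 0.00151) and the sterol hydroxylase Cyp27a1 (0.31, adjusted p = 0.00137).

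Several further genes of that list were picked out after their values had been seen. Nkd1 and Notum are feedback inhibitors of Wnt signaling, and Sp5 is a transcription factor induced by it. Nkd1 fell by 0.70 (adjusted p = 0.000169, edgeR), Sp5 by 0.75 (adjusted p = 0.00509) and Notum by 0.31 (adjusted p = 0.000789) on the log2 scale. Sp5 was close to the counting limit, with 12 to 45 counts per liver. Pericentral P450 enzymes with high levels gave other values: Cyp2e1 was at 6392 ± 760.2 CPM in sedentary and 7277 ± 804 CPM in exercised livers (0.19, adjusted p = 0.0933), and Cyp1a2 at 546 ± 123 and 458 ± 69.3 CPM (-0.25, adjusted p = 0.189).

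Periportal genes, which mark the opposite end of the lobule, were called in either direction about as often as all genes (40.9%, against 42.4%). Of 22 tested, 7 were higher and 2 lower, where 21.1% of all genes were higher and 21.3% lower. The median log2 fold change was 0.18, against -0.0028 over all genes tested. A shift of the list as a whole was not tested. Sdsl, a serine dehydratase-like enzyme (0.93, adjusted p = 1.09e-05, edgeR), G6pc, the glucose-6-phosphatase of gluconeogenesis (0.81, adjusted p = 8.81e-06), and Etnppl, which breaks down phosphoethanolamine (0.43, adjusted p = 0.000462), rose. Hal, the first enzyme of histidine breakdown (-0.45, adjusted p = 0.0381), and Cdh1, which encodes E-cadherin (-0.75, adjusted p = 0.0108), fell. Pck1, the gluconeogenic enzyme with the largest change on the list and named after its value was seen, went from 1214 ± 591 to 4633 ± 586 CPM (1.93, adjusted p = 0.000531). The other higher genes, Sds, Ass1 and Asl, encode enzymes of serine breakdown and of the urea cycle and were likewise named after their values were seen.

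Of 10 tested genes around glutamine and ammonia, the pathway in which Glul and Rhbg act, 4 were higher and 1 lower (50% in all, against 42.4% of all genes, 21.1% higher and 21.3% lower). Slc25a22, a mitochondrial glutamate carrier, went from 148 ± 9.90 to 441 ± 72 CPM (1.58, adjusted p = 2.50e-09, edgeR), the amino acid transporter Slc38a2 rose by 1.47 (adjusted p = 2.55e-08), and the ornithine carrier Slc25a15 by 0.98 (adjusted p = 7.66e-08). The glutamine transporter Slc38a3 was the lower gene (-0.31, adjusted p = 0.000731). The glutaminase of periportal hepatocytes, Gls2, did not pass the test (0.07, adjusted p = 0.554).

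Upstream of the 10 genes, Wnt ligands and R-spondins were scarce in these libraries. Of 25 genes on the list, with their secretion factors, 19 were in the table and 9 passed the filter, of which 2 were lower and 0 higher (22.2% in all, against 42.4% of all genes, 21.3% lower and 21.1% higher). DESeq2 and limma-voom also called 2, and 3 of the 9, Wnt2 included, had an unadjusted p under 0.05 in edgeR. The lower genes were Wnt5a, a ligand mostly known for signaling without beta-catenin (1.25 ± 0.389 to 0.455 ± 0.199 CPM, -1.45, adjusted p = 0.000656, edgeR), and Wnt5b (7.34 ± 1.09 to 5.02 ± 0.689 CPM, -0.55, adjusted p = 0.000921). Wnt5a rested on 3 to 13 counts per exercised liver. The signals known from the central vein did not pass the test: Wnt2 was at 2.92 ± 0.373 and 3.71 ± 0.770 CPM (0.35, adjusted p = 0.0572), Wnt9b at 1.61 ± 0.513 and 1.41 ± 0.319 CPM (-0.20, adjusted p = 0.487) and Rspo3 at 4.29 ± 0.808 and 3.92 ± 0.541 CPM (-0.13, adjusted p = 0.458). With 19 to 50 counts per liver for Wnt9b and 57 to 116 for Rspo3, the standard errors of these log2 differences were 0.212 and 0.135. Wnt2b (0.13), Wnt4 (-0.44), Porcn (0.03) and Wls (0.02) did not pass either.

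Of 12 tested receptors of the pathway, 4 were higher and 3 lower (58.3% in all, against 42.4% of all genes). Among the higher were Fzd5 (4.48 ± 0.519 to 8.48 ± 1.56 CPM, 0.92, adjusted p = 1.59e-05, edgeR), the R-spondin receptor Lgr4 (0.32, adjusted p = 0.00332) and the co-receptor Lrp6 (0.35, adjusted p = 0.00364). The 3 lower genes were Fzd7 (-0.67, adjusted p = 0.000785), Ror1 (-0.93, adjusted p = 0.000798) and Fzd6 (-0.75, adjusted p = 0.00626). Lgr4 stood at 33.6 ± 4.27 and 41.9 ± 3.30 CPM and moved opposite to Lgr5.

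Of 18 tested genes of the beta-catenin destruction complex and its regulators, 11 were higher and 2 lower, with a median log2 fold change of 0.27. This is 72.2% called, against 42.4% of all genes, 21.1% higher and 21.3% lower. The list mixes parts of the complex with genes that relay the Wnt signal, so the count gives no direction for beta-catenin breakdown. Dvl3, which relays the signal from Frizzled (0.38, adjusted p = 0.00013), Apc, the scaffold of the complex (0.35, adjusted p = 0.000467), and Amer1, which binds Apc (0.67, adjusted p = 0.000514, edgeR), rose. Siah1a, a ubiquitin ligase (-0.56, adjusted p = 0.00128), and Dvl1 (-0.15, adjusted p = 0.0272) fell. Among TCF/LEF factors and cofactors, 6 of 15 were higher and 2 lower (53.3% in all, against 42.4% of all genes). The corepressor Tle1 (0.70, adjusted p = 5.19e-06), the beta-catenin cofactor Bcl9l (0.46, adjusted p = 1.12e-05) and the acetyltransferase Ep300 (0.47, adjusted p = 4.79e-05) rose, whereas Ctnnbip1, an inhibitor of the beta-catenin and TCF contact (-0.38, adjusted p = 0.00602), and Tcf7l1 (-0.30, adjusted p = 0.0096) fell. Of 3 secreted inhibitors and their partners that could be tested, Kremen1 was lower (-0.36, adjusted p = 0.00602, edgeR). This is 33.3% called, against 42.4% of all genes and 21.3% lower.

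**Figure D4:**
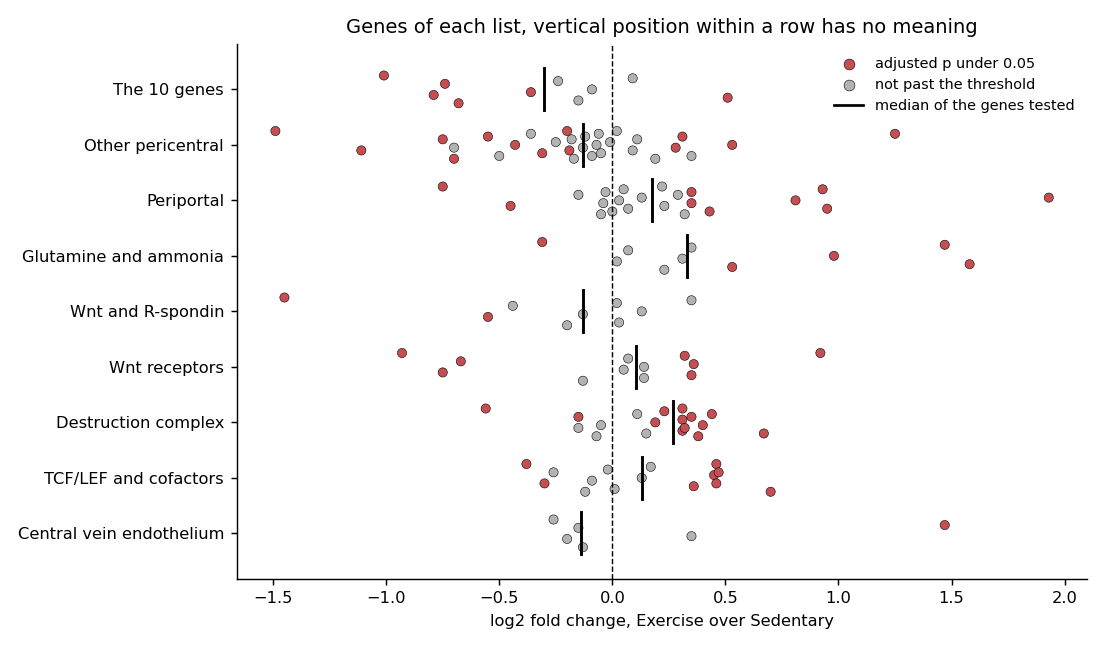
Log2 fold change of Exercise over Sedentary (x axis) for every tested gene of 9 lists (rows); each point is a gene, red with an adjusted p under 0.05, and the vertical line is the median of the genes tested. The 10 genes have a median of -0.30, the other pericentral genes -0.13 and periportal genes 0.18. The row named for the destruction complex also holds its regulators, Dvl genes included, and has a median of 0.27.

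Library totals were 18971992 to 19324461 counts in Sedentary and 18745379 to 19001010 in Exercise. Hepatocyte genes took 135308 to 179915 CPM in sedentary and 165496 to 192748 CPM in exercised livers. Of 10 tested, 3 were higher (Tat, Hnf4a and Alb) and 0 lower. This is 30% called, against 42.4% of all genes, 21.1% higher and 21.3% lower. Of 6 central vein endothelium genes, Thbd, which encodes thrombomodulin, rose by 1.47 on the log2 scale (2.53 ± 0.371 to 6.99 ± 1.71 CPM, edgeR adjusted p = 1.31e-06), and Wnt2, Wnt9b, Rspo3, Cdh13 (-0.15, adjusted p = 0.553) and Kit (-0.26, adjusted p = 0.0753) did not pass. Thus 1 of these 6 was called (16.7%, against 42.4% of all genes). Their summed level was 16.9 to 20.4 CPM in sedentary and 17.5 to 27.7 CPM in exercised livers. Of 7 sinusoidal endothelium genes, Stab1, Lyve1 and Pecam1 were higher and Kdr lower (57.1% called, against 42.4% of all genes). Their sums were 139 to 185 CPM in sedentary and 165 to 244 CPM in exercised livers. In edgeR, DESeq2 and limma-voom alike, 0 of 6 Kupffer cell, 0 of 5 cholangiocyte and 0 of 2 lymphocyte genes were called. Of these, 0 were at an unadjusted p under 0.05 in edgeR, where 42.4% of all genes were called. Of 7 stellate cell genes Hgf was higher and Lrat and Des lower (42.9% called, against 42.4% of all genes). No marker on these lists was at 0 in all livers. The part of endothelial or hepatocyte content in the values of the 10 genes was not tested.

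Levels of Glul were also related to those of the other genes within each group of 6 livers. Of 18 such relations, none passed Benjamini-Hochberg adjustment. The relation with the smallest p was that of Glul and Rnf43 in sedentary livers, with Pearson's r = 0.903 (exact permutation p = 0.00972, adjusted 0.175), Spearman's rho = 0.886 (exact permutation p = 0.0333, adjusted 0.525) and r = 0.791 without the 2 livers farthest from the median of Glul. In exercised livers the same pair had r = -0.251 (exact permutation p = 0.603, adjusted 0.724), rho = -0.314 (exact permutation p = 0.564, adjusted 0.903) and r = -0.272 without 2 livers. The difference between the groups in this relation was not tested.

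Across all 12 livers, as deviations from the group means of log2(CPM + 0.5) and over 11537 genes that averaged 1 CPM or more, those most like Glul were Cyp2c40 (r = 0.849), Specc1 (0.842), Nt5e (0.835), Bcl9 (0.834) and Trp53rkb (0.832). Of the other genes described here, Rhbg stood highest in that order, at 25th (0.742). Axin2 was 153rd (0.604), Lhpp 195th (0.584), Tbx3 354th (0.524), Lgr5 1173rd (0.353) and Rnf43 1902nd (0.265). Znrf3 was 3462nd (0.125), Tcf7l2 3763rd (0.104) and Ctnnb1 6371st (-0.0674). For Rnf43 the nearest genes were Ssr1 (0.902), Arhgef17 (0.892), Gm3055 (0.871), Adora2a (0.858) and Catsper2 (0.852). These correlations are descriptions over libraries that share depth and scaling, and the lists of Glul and Rnf43 had no gene in common.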

How the data were processed

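Libraries were made from total liver RNA with a messenger RNA kit, per the labels. The authors deposited estimated (expected) counts and FPKM per gene and library; the submitters' notes name Bowtie2 2.3.4.3, RSEM 1.3.1 and mm10, and annotation and strand use were not given in the sources used here. Of the deposited estimated counts, 31.3% were not whole, and they were rounded. No column of per-sample values was left unmapped, and no 2 libraries were identical.

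Counts were tested in R 4.3.3 with edgeR 4.0.16 (TMM factors, filterByExpr at 10 counts, quasi-likelihood test with robust dispersions, Benjamini-Hochberg adjustment over all genes, threshold 0.05). The model was tested on simulated data. Single genes were also compared by exact two-sided permutation over livers (scipy 1.17.1). The deposited FPKM served for levels between genes and, as log2(FPKM + 0.1) or log2(FPKM + 1), for limma 3.58.1. Fits with DESeq2 1.42.0, limma-voom, other scalings and filters, a replicate block and each library left out were alternatives. Gene positions came from GENCODE on GRCm38 and promoters from RefSeq.

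The members and gene lists were chosen with earlier results of these data known. Named were the 10 genes, up to 3 called genes per direction and list with the smallest p, each central vein endothelium gene, each tested Wnt ligand or R-spondin, and the 5 genes most like Glul and most like the gene with the smallest p; other names are marked as chosen later.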

Additional observations from a re-analysis of the deposited data

Results flagged for a closer look

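In 6 of 110 groups of 6 livers, from 55 named genes, 1 liver stood apart from the others of its group by Dixon's criterion at the 95% level, where chance gives about 5.5, or 1 in 20. Among the 10 genes this was Tcf7l2 in Exercise 2, at 12.1 CPM with the next liver at 9.62 CPM. Exercise 3 stood apart for Slc1a2, at 188 CPM with the next at 142 CPM, for Tle1, at 63.5 CPM with the next at 49.3 CPM, and for G6pc, at 740.3 CPM with the next at 852 CPM. Tcf7l1 in Sedentary 1 was at 8.60 CPM with the next at 10.4 CPM. Pecam1 in Sedentary 6 was at 14.1 CPM with the next at 12.2 CPM.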

How the results depend on the processing

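Over all alternatives run, 5 to 7 of the 10 genes were called, with Znrf3 as the 1 higher gene in each, and Rnf43, Glul, Tbx3, Lgr5 and Znrf3 kept their direction and, at the 0.05 threshold, their call. With 1 liver left out, Rnf43 ranged from -1.05 to -0.96, Glul from -0.78 to -0.71, Tbx3 from -0.85 to -0.70, Lgr5 from -0.78 to -0.57 and Znrf3 from 0.44 to 0.58, Rhbg from -0.43 to -0.27 (lost without Sedentary 1 or Exercise 1) and Tcf7l2 from -0.33 to -0.19 (called without Sedentary 1, Sedentary 5 or Exercise 2). Scaling by library size alone, which shifts the median of all genes to -0.098, gave -0.34 for Tcf7l2 (called) and -0.0026 for Ctnnb1, whose sign turned; limma gave -0.32 and -0.0018 on log2(FPKM + 0.1), where the median of all genes was -0.093, and -0.24 and -0.0018 on log2(FPKM + 1), Tcf7l2 being called in both. Genes called higher then fell to 1702 and 1714 from 2603, and the higher share of calls to 31.4% and 31.6% (32.1% with library size alone) from 49.8%. Requiring 10 counts in every library left 1 called Wnt ligand in place of 2 and 2 called secreted inhibitors in place of 1. Central vein endothelium calls were 2 in place of 1 with library size alone, on both FPKM scales and without Exercise 1 and 3 together, an alternative added once the data were known, which left 6 of the 10 genes called. Stellate calls went from 3 to 0 at an adjusted p of 0.01, and lymphocyte calls from 0 to 1 with no filter. With 1 liver left out, calls ranged from 2 to 4 for Wnt ligands (4 without Exercise 5), 1 to 2 for secreted inhibitors (2 without Sedentary 2 or Exercise 5), 2 to 6 for hepatocyte genes (6 without Sedentary 5), 1 to 3 for central vein endothelium (3 without Sedentary 3, 2 without Exercise 3 or 5), 0 to 4 for stellate genes (0 without Sedentary 1, 1 without Sedentary 2 or 4 or Exercise 3 or 6) and 0 to 1 for cholangiocyte genes (1 without Exercise 2). The cause of these differences was not tested. The labels do not say whether same-numbered livers of the 2 groups share more than a number. Correlations of their deviations ran from -0.11 to 0.168, with 2 of 6 highest with their own number, which cannot settle it. With the replicate block 4956 genes and 6 of the 10 were called, against 5229 and 6. Counts of 40 to 145 limit Lgr5.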
